A study of Mus musculus with 4 samples.

Results

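The G2 and mitosis genes described here are 40 genes that act between the end of DNA synthesis and the separation of daughter cells. They were given as a list of symbols, and all 40 were found among the 32285 features of the deposited gene tables. They were read by droplet single-cell RNA sequencing of mouse small-intestinal crypts, which were released from the tissue with EDTA. The 2D group holds the libraries 2D-1 and 2D-2, and the 0D group holds 0D-1 and 0D-2. The study concerns sleep deprivation and compares cells taken before it with cells taken after it; the labels do not spell out what 0D and 2D stand for. The sources used here do not give strain, age, sex, genotype or how many mice a library holds. They also do not say that the libraries of a group came from separate animals, so a p-value here reflects no more than how far these 4 libraries lie apart, and that distance may be technical.

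Cells that have copied their DNA pass through G2, when cyclin B and the kinase Cdk1 build up. In mitosis the chromosomes condense, attach to the spindle by their kinetochores, and are separated once the anaphase-promoting complex is switched on. Most of these genes are transcribed in one wave late in the cycle. The DREAM and B-Myb-FoxM1 complexes are known to control this timing, and promoter elements called CHR and CCAAT boxes take part in it. In the intestinal crypt, Lgr5+ stem cells at the base and the progenitors above them divide, while mature absorptive cells and Paneth cells do not.

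The promoters of the members were searched for these elements, and 4 that hold the CHR letters are shown because the members share this feature although nothing in their choice used sequence. Promoter windows, from 250 bases before to 50 bases after the start, were taken from RefSeq (build GRCm38.p6) and matched 34 of the 40 members. The letters TTTGAA, or TTCAAA on the other strand, stood in 26 of these 34 windows (76.5%), against 18.1% of all 27025 windows. The CCAAT letters, or ATTGG on the other strand, also stood in 26 of 34, against 37.9% of all windows, and both elements stood in 22 of 34 (64.7%), against 7.12% of all. Within 50 bases of the start, a window chosen after the positions of the hits had been seen, 22 of 34 members held the CHR letters, against 4.92% of all windows. The 250 bases before the start are shown for Top2a, Mki67, Ube2c and Cdk1, with both elements in capitals and every base in gene orientation. Cenpf, Cdca8, Prc1, Cdca3 and Cenpa rank above Cdk1 in level and hold the CHR letters in the full window but not in these 250 bases, so they were passed over, a choice made after the hits had been seen. A match is a description of letters and not a measured binding site.
Top2a, GRCm38.p6 chr11:99024190-99024439, minus strand: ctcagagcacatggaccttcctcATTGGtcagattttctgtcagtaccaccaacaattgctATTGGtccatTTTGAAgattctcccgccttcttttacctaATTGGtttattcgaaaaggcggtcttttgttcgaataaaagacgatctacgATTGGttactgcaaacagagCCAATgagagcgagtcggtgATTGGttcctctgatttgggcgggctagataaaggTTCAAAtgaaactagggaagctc
Mki67, GRCm38.p6 chr7:135716380-135716629, minus strand: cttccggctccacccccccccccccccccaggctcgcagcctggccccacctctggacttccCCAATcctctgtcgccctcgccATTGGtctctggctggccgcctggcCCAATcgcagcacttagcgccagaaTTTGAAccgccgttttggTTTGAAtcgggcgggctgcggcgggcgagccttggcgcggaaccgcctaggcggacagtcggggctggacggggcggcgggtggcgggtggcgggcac
Ube2c, GRCm38.p6 chr2:164769679-164769928, plus strand: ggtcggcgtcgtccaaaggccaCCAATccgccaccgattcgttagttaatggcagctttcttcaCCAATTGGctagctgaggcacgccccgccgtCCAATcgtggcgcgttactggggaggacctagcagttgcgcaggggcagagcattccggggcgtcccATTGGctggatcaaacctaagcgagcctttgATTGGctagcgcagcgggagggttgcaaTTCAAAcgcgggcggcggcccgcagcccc
Cdk1, GRCm38.p6 chr10:69352913-69353162, minus strand: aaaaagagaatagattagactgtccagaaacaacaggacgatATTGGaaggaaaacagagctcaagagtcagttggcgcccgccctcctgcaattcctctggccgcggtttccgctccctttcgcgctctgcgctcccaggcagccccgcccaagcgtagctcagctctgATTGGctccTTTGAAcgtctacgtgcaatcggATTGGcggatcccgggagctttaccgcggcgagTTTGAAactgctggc
Top2a, which encodes the topoisomerase that untangles sister chromatids, has 2 CHR and 6 CCAAT elements in this stretch. Mki67, the gene of the Ki-67 antigen that coats mitotic chromosomes, has 2 and 3, Ube2c, the ubiquitin-conjugating enzyme of the anaphase-promoting complex, has 1 and 6, and Cdk1 has 2 and 3.

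After filtering, 7025 and 7988 cells remained in 2D-1 and 2D-2 and 7586 and 7132 in 0D-1 and 0D-2, 29731 in all, with 93090534 to 113758758 unique molecular identifiers (UMIs) per library. Each cell was placed by marker genes that include none of the 40 members. The dividing gate used 28 other genes, 16 of S phase and 12 of G2 and mitosis, and the stem, absorptive and secretory gates held cells below the dividing cut. All markers of the stem, absorptive, Paneth and goblet lists were detected in dividing cells, and 37 cells with immune markers were left out. Between 1.503% and 7.62% of a library's cells lay within 10% of the stem, dividing, absorptive or Paneth cut. The libraries shared 13 to 16 cell barcodes per pair. The 2D libraries stood further apart than the 0D libraries, with a root-mean-square log2 difference between the pair of 0.45 in 2D and 0.26 in 0D for dividing cells.

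Member transcripts lay mostly in the dividing gate. It held 89.0% and 85.99% of all member UMIs in 2D-1 and 2D-2 and 89.9% and 90.3% in 0D-1 and 0D-2. The 40 members summed to 5872 and 5171 CPM, the UMIs of a gene scaled to a common total per gate and library, in dividing cells of 2D, against 5388 and 5726 CPM in 0D. In non-dividing stem cells they summed to 658 and 583 CPM in 2D, against 686 and 728 CPM in 0D. Non-dividing absorptive cells held 589 and 461 CPM in 2D, against 497 and 470.0 CPM in 0D, and non-dividing secretory cells held 299 and 214 CPM in 2D, against 310.5 and 276 CPM in 0D. In each library the dividing gate lay above all of the non-dividing gates. The dividing cut used 12 other G2 and mitosis genes, and the non-dividing gates hold the cells below it. This order therefore follows in part from the gates and is a description.

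**Figure D1:**
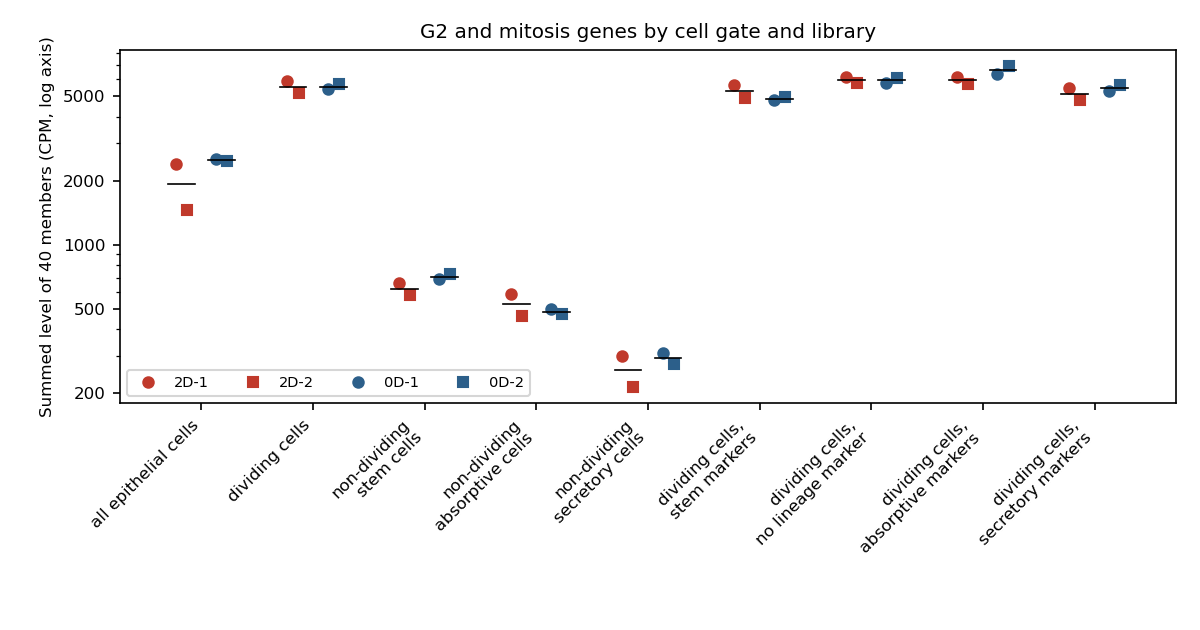
Summed level of the 40 members in each cell gate (CPM, log axis), 1 point per library and a line at each group's mean; 2D is left of 0D. Dividing gates lie between 4783 and 6908 CPM and non-dividing stem, absorptive and secretory gates between 214 and 728 CPM.

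Free RNA gives UMIs to cells that do not express a gene, so shares of cells with a member UMI were read against Paneth cells, which do not divide. After thinning every cell to 3000 UMIs, 35.3% and 22.7% of non-dividing Paneth-gated cells held at least 1 member UMI in 2D, against 28.3% and 25.8% in 0D. Their median depth before thinning was 10266 and 10668 UMIs in 2D, and 27869 and 19025 UMIs in 0D. Non-dividing absorptive cells showed 62.0% and 44.6% in 2D, against 52.2% and 53.7% in 0D, at median depths of 18810 and 11785 UMIs in 2D and 12822 and 14561 UMIs in 0D. Non-dividing stem cells showed 64.8% and 52.7% in 2D, against 68.5% and 77.7% in 0D. Before thinning, the share was 87.2% and 78.4% of non-dividing absorptive cells in 2D, against 86.9% and 90.2% in 0D, and 72.3% and 56.3% of Paneth-gated cells in 2D, against 71.5% and 76.6% in 0D. Thinning left out 14.1% and 18.3% of Paneth-gated cells in 2D as too shallow, against 4.44% and 12.2% in 0D. It left out 5.89% and 8.08% of non-dividing absorptive cells in 2D, against 2.95% and 5.73% in 0D, and 0.852% and 3.07% of dividing cells in 2D, against 1.03% and 2.32% in 0D. A stricter measure, at least 15 member UMIs of 3000, found 54.4% and 48.9% of dividing cells in 2D, against 49.5% and 49.6% in 0D, and at most 1.66% of cells in the non-dividing stem, absorptive and secretory gates. The share of member-rich dividing cells differed by 2.13 percentage points between groups (exact permutation test, two-sided, p = 1), with the groups overlapping.

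The members were ordered along the cycle inside the dividing gate without using them. Each library's dividing cells were split into 4 equal bins by the score of the 12 G2 and mitosis genes of the gate minus the score of its 16 S phase genes. Every member had its highest mean level in bin 4, and the summed member level rose from bin to bin in each library. The fold of bin 4 over bin 1 ran from 2.20 for Top2a to 15.8 for Cdc20, with a median of 4.98. These are descriptions, since the axis and the members are both genes of the cycle and share the cells and their depth.

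The steepest members came from several roles. Cdc20, the activator of the anaphase-promoting complex, averaged 13.7, 55.9, 147 and 216.5 CPM in bins 1 to 4. Ccnb1, which encodes cyclin B1, averaged 11.9, 52.9, 115 and 175 CPM, a fold of 14.7, and Cdc25c, the phosphatase that activates Cdk1, had a fold of 13.5. Hmmr, a spindle protein, and Cenpf, a kinetochore protein, each had a fold of 12.5, Cenpa, the centromeric histone, 11.8 and Ube2c 10.96. Ccna2, which encodes cyclin A2, had a fold of 3.87 and Cdk1 one of 3.10. The flattest were Top2a at 2.20, Smc4, a condensin subunit, at 2.23, Ndc80, a kinetochore protein that binds microtubules, at 2.38, Ttk, the checkpoint kinase Mps1, at 2.43 and Mki67 at 2.53. Top2a averaged 358 CPM in bin 1 and 787 CPM in bin 4, so it was already present where the S phase genes were highest. For Ndc80 the highest bin was bin 4 in 3 of 4 libraries.

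**Figure D2:**
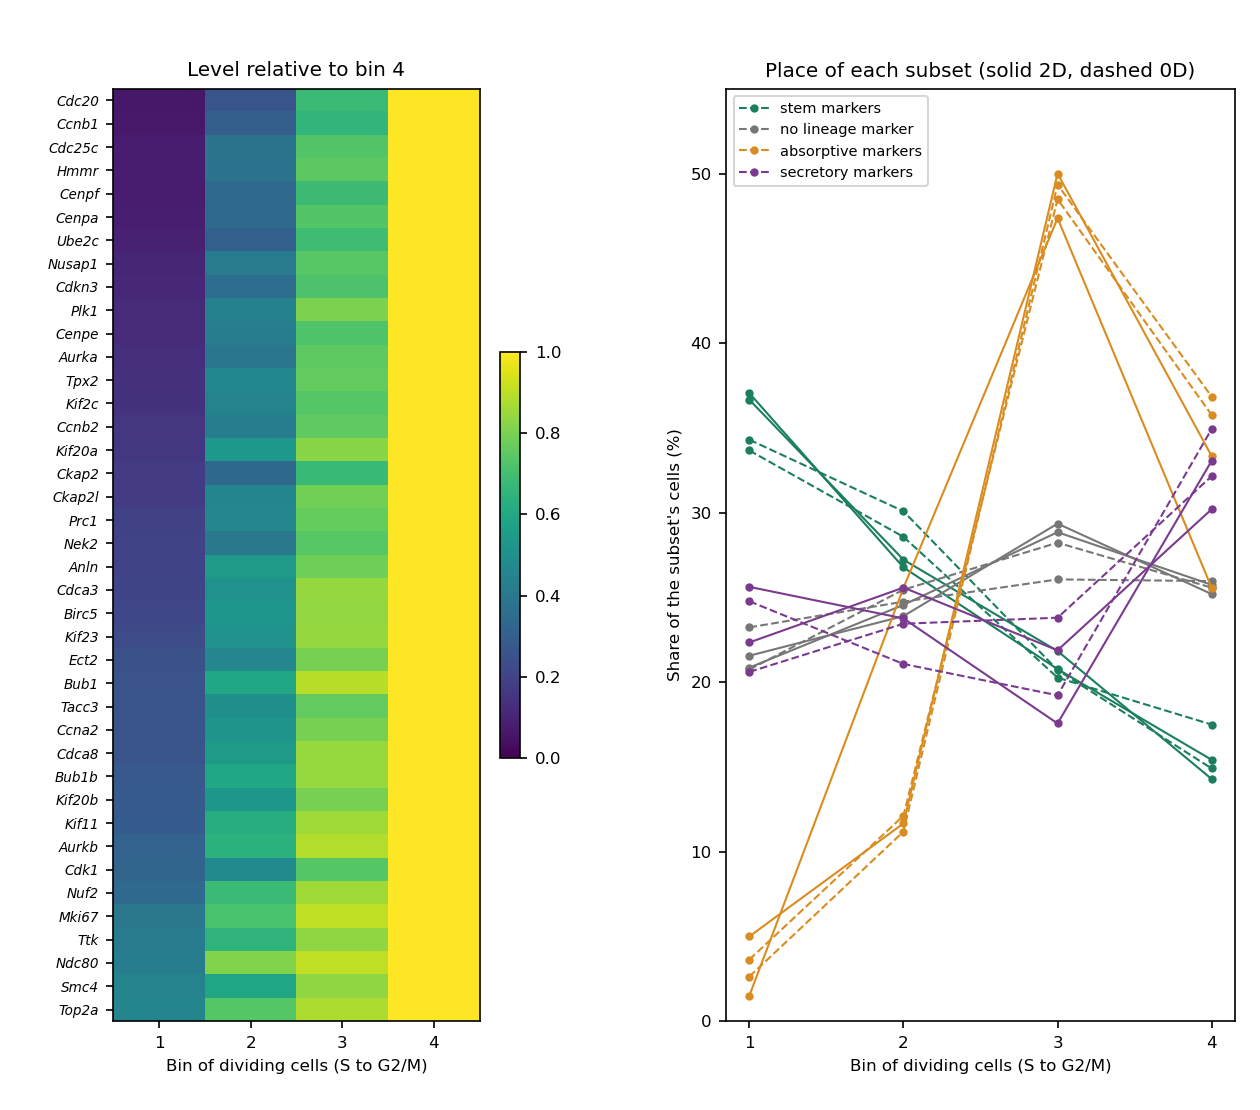
Left, mean level of each member by bin of dividing cells relative to bin 4, with members ordered by fold; right, share of each dividing subset's cells in each bin (%), 1 line per library. Cdc20 has the largest fold (15.8) and Top2a the smallest (2.20); absorptive-marked cells peak in bin 3 (47.4% to 50%) and stem-marked cells in bin 1 (33.7% to 37.0%).

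Across all epithelial cells, the member sums were below those of 0D in both 2D libraries. The 40 members summed to 2407 and 1458 CPM in 2D, against 2541 and 2485 CPM in 0D. The log2 change was below 0 for all 40 members, with a median of -0.27, against a median of 0.01 over all 15404 genes tested, but none passed the adjusted threshold of 0.05 in edgeR's quasi-likelihood test with Benjamini-Hochberg adjustment (background 0% called; 1 member, Aurkb, had an unadjusted p under 0.05, as did 20.5% of all genes). Both 2D values lay below both 0D values for 23 of the 40 members, as they did for 38.3% of all genes tested, and above them for 0 members (16.4% of all genes). Without 2D-1 the median was -0.60, and without 2D-2 it was -0.03. In such fits the 2D arm is 1 library whose spread is taken from the 0D pair alone, so they have no replicate check in 2D. In DESeq2 none of the 40 passed, though it called 716 genes. In these sums over cells, fewer dividing cells and less RNA per cell cannot be told apart.

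The share of dividing cells differed in the same direction. Dividing cells made up 25.1% and 18.4% of epithelial cells in 2D, against 34.6% and 32.0% in 0D. The means were 21.7 ± 4.75% in 2D and 33.3 ± 1.82% in 0D (SD, n = 2 each), a difference of -11.6 percentage points that the exact permutation test, two-sided, put at p = 0.3333, the smallest it can give with 2 against 2. When markers and cuts were recomputed on cells thinned to 3000 UMIs, the shares were 24.7% and 19.0% in 2D, against 33.2% and 31.5% in 0D. With at most 10% mitochondrial UMIs per cell, they were 29.1% and 19.0% in 2D, against 34.8% and 32.2% in 0D. That limit kept 5130 of 7017 epithelial cells in 2D-1 and 7221 of 7979 in 2D-2. It kept 6766 of 7577 in 0D-1 and 6291 of 7121 in 0D-2, so 2D-1 depended most on this filter. Shares add to a whole, and non-dividing secretory cells made up 61.1% and 72.0% in 2D, against 44.2% and 49.3% in 0D; the part of the secretory share in the dividing share was not tested.

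Within dividing cells, no member passed the test between groups. None of the 40 passed the threshold (background 0% of 13551 genes; 1 member, Kif20b, had an unadjusted p under 0.05, as did 11.7% of all genes, and DESeq2 called none of the 40 among 136 genes), and 20 log2 changes lay above 0 and 20 below, with a median of 0.00 (all genes, 0.00). The groups did not overlap for 2 members that were higher and 4 that were lower in 2D, against 21.3% and 23.3% of all genes. The smallest log2 change was -0.18 for Kif23, a kinesin of the spindle midzone, and the largest was 0.24 for Cdc25c.

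**Figure D3:**
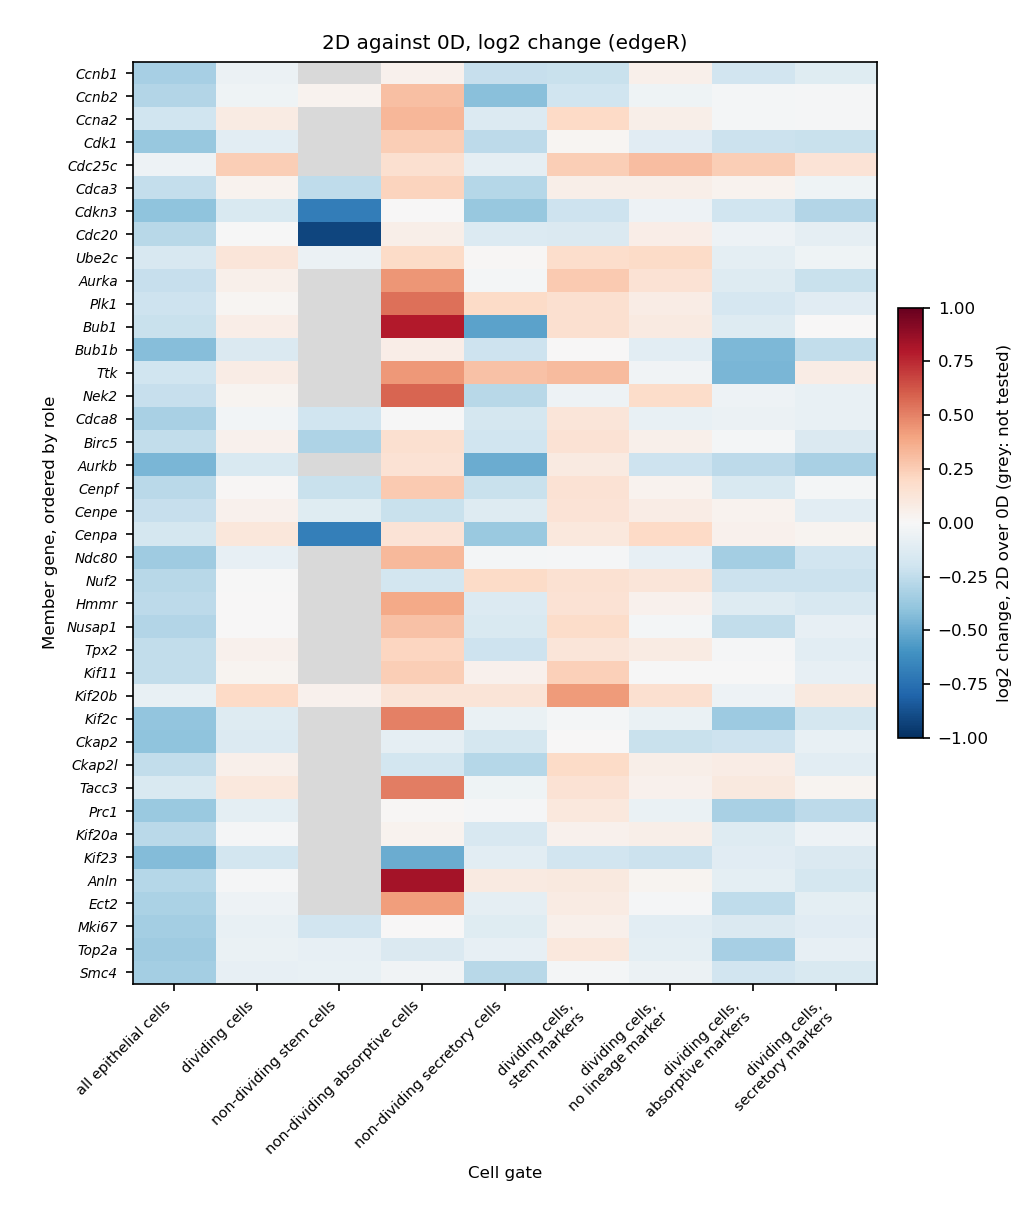
Log2 change of 2D over 0D (edgeR) for each member, ordered by role, in each cell gate; grey marks members not tested. The column of all epithelial cells is below 0 for all 40 members (median -0.27), dividing cells lie between -0.18 and 0.24, and no square passed the adjusted threshold of 0.05.

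Chromosome structure genes had log2 changes between -0.08 and -0.07. Top2a had 610.4 and 587 CPM in 2D dividing cells, against 622 and 634 CPM in 0D (log2 change -0.07 ± 0.06, SE). Mki67 had 575 and 537 CPM in 2D, against 572 and 598 CPM in 0D. Smc4 had 298 and 274 CPM in 2D, against 293 and 313 CPM in 0D. The Mki67 and Smc4 values overlapped between groups, while both Top2a values were below both 0D values; edgeR's adjusted p was 0.701 for Top2a.

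Cdk1, its cyclins and their switches went both ways. Cdk1 had 132 and 110.0 CPM in 2D, against 121 and 140 CPM in 0D (log2 change -0.10 ± 0.11, SE). Cdca3, an adaptor that directs Wee1 to degradation, had 202 and 166 CPM in 2D, against 174 and 185 CPM in 0D. Of the 7 members in this role, 3 had a log2 change above 0 and 4 below, and none passed. Ube2c, of the anaphase-promoting complex, had 549 and 488 CPM in 2D, against 461 and 494 CPM in 0D (log2 change 0.12 ± 0.08, SE; edgeR adjusted p = 0.58).

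Passenger, kinetochore and cytokinesis genes did not pass either. Birc5, the survivin subunit of the chromosomal passenger complex, had 361 and 321 CPM in 2D, against 322 and 342 CPM in 0D. Its partner Cdca8, borealin, had 201 and 202 CPM in 2D, against 201 and 210.4 CPM in 0D. Cenpf had 266 and 237 CPM in 2D, against 246 and 252 CPM in 0D. Cenpa had 204 and 165 CPM in 2D, against 160.4 and 181 CPM in 0D. Prc1, the bundler of midzone microtubules, had 188 and 168 CPM in 2D, against 181 and 199.9 CPM in 0D. These 5 genes overlapped between groups. Kif20b, a kinesin, had 117 and 106 CPM in 2D, against 93.5 and 101 CPM in 0D, and both 2D values lay above both 0D values (log2 change 0.20 ± 0.08, SE; edgeR adjusted p = 0.410). Kif23 had 99.6 and 86.7 CPM in 2D, against 105 and 106 CPM in 0D (log2 change -0.18 ± 0.08, SE; edgeR adjusted p = 0.45).

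Markers of some other cell types also differed in level between the groups' dividing cells. The 10 Paneth markers, all detected, summed to 12069 and 18463 CPM in 2D dividing cells, against 7717 and 6323 CPM in 0D. This was not particular to dividing cells. In non-dividing absorptive cells they summed to 3247 and 3947 CPM in 2D, against 1348 and 1794 CPM in 0D. Non-dividing stem cells held 4913 and 6200 CPM of them in 2D, against 2369 and 3328 CPM in 0D. The 11 goblet markers overlapped in dividing cells, at 11568 and 26473 CPM in 2D, against 13633 and 15987 CPM in 0D. The 10 stem markers summed to 1520 and 1637 CPM in 2D, against 1932 and 1913 CPM in 0D. Stem-marked cells were 26.5% and 25.3% of dividing cells in 2D, against 34.5% and 33.2% in 0D, and secretory-marked cells 27.5% and 44.3% in 2D, against 21.5% and 23.7% in 0D. The part of these markers and subsets in the member values was not tested.

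The same comparison was made within subsets of dividing cells. None passed the threshold in any of the 4 subsets (background 0.0762% of genes in stem-marked, 0.0505% in unmarked, 0.233% in absorptive-marked and 0% in secretory-marked cells). In stem-marked dividing cells 31 of 40 log2 changes were above 0, with a median of 0.11 (all genes, 0.00); both 2D values lay above both 0D values for 17 members and below them for 1 (25.8% and 18.1% of all genes). Leaving out 2D-1 turned this median to -0.04, and leaving out 2D-2 gave 0.19. There Kif20b had the smallest p (log2 change 0.43 ± 0.09, SE; edgeR adjusted p = 0.175) and passed in DESeq2, with no filter, and when either 2D library was left out, where the 2D arm is 1 library. In absorptive-marked dividing cells 6 of 40 were above 0, with a median of -0.13; both 2D values lay above for 1 and below for 20 (15.8% and 21.3% of all genes). In secretory-marked dividing cells 6 of 40 were above 0, with a median of -0.10, with both 2D values above for 0 and below for 10 (16.7% and 19.3% of all genes). In unmarked dividing cells 22 of 40 were above 0, with a median of 0.04, with both 2D values above for 8 and below for 7 (20.8% and 21.4% of all genes); leaving out 2D-1 turned it to -0.04, and leaving out 0D-1 to -0.03. The difference of the 2D change between absorptive-marked and stem-marked cells had a median of -0.25 and was furthest by p for Top2a, at -0.44 ± 0.09 (SE; edgeR adjusted p = 0.0712). In all, 0 of 40 members passed in any of the 3 such tests by edgeR (background 0.0761%, 0.0594% and 0.185% of genes for absorptive-, secretory- and unmarked cells); 16, 6 and 11 members had an unadjusted p under 0.05 for absorptive-, secretory- and unmarked-against-stem cells, against 5.93%, 5.31% and 7.83% of all genes.

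In non-dividing cells the member levels were low and no member passed. In non-dividing absorptive cells 32 of 40 log2 changes were above 0, with a median of 0.18 (background 0.216% of genes called; 3 members, Nek2, Tacc3 and Kif23, had an unadjusted p under 0.05, as did 13.7% of all genes). The groups did not overlap for 11 members that were higher and 1 that was lower in 2D, against 23.7% and 22.1% of all genes. Without 2D-1 the median was -0.06 and without 2D-2 it was 0.30. In non-dividing secretory cells 33 of 40 were below 0, with a median of -0.14 (background 0% called; both 2D values above for 0 and below for 7, against 12.7% and 29% of all genes). Leaving out 2D-2 turned this median to 0.02, as did all cuts set 20% higher (0.02), and leaving out 2D-1 gave -0.34. In non-dividing stem cells only 14 of 40 members passed the filter on low counts, and 12 of those 14 lay below 0, none past the threshold (background 0.347%; both 2D values above for 1 and below for 5 of 14, against 28.8% and 13.3% of all genes). With 76 to 270 cells per library, these values rest on few UMIs, 526 to 1605 for all members in a library.

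Dividing cells of different lineage held different member levels. Each library was compared with itself, with the library as a block. All subsets passed the same dividing cut, on a mean over 16 S phase and 12 other G2 and mitosis genes. In each library the share of cells that passed it was highest among cells with stem markers. A cell with low S phase genes needs higher G2 and mitosis genes of the gate to pass. The member differences may therefore follow in part from the gate, and that part was not tested. Against stem-marked dividing cells, absorptive-marked dividing cells held 26 members higher and 3 lower of 40, with a median log2 difference of 0.37 (background 35.1% higher and 36.2% lower of 10509 genes; all genes, median -0.02). Secretory-marked cells held 20 higher and 4 lower (background 32.8% and 32.7%), with a median of 0.15. Unmarked cells held 28 higher and 3 lower (background 31.8% and 32.0%), with a median of 0.26; this comparison was added after the data were seen. In the main setting, the share of members called higher was above the background share in these 3 comparisons, and the share called lower was below it. The counts of higher members depended on the processing. With a library left out, 22 to 28 members were higher in absorptive-marked, 14 to 23 in secretory-marked and 26 to 32 in unmarked cells. Under the other alternative settings these counts were 22 to 27, 14 to 26 and 26 to 31. Leaving out cells with a doublet score over 0.3 kept 399 of 484 secretory-marked dividing cells in 2D-1 and 582 of 649 in 2D-2. In 0D-1 it kept 450 of 563 and in 0D-2 452 of 541. Of stem-marked dividing cells it kept 458 of 467 and 368 of 371 in 2D, and 890 of 903 and 755 of 758 in 0D.

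All 7 cyclin and Cdk1 genes and both genes of the mitotic exit ligase were higher in absorptive-marked cells. Cdkn3, a phosphatase that acts on Cdk1, had 108 and 94.4 CPM in absorptive-marked cells of 2D-1 and 2D-2 and 111 and 128 CPM in those of 0D-1 and 0D-2, against 54.0, 40.04, 51.0 and 57.1 CPM in stem-marked cells of the same libraries. Its log2 difference was 1.15 ± 0.06 (SE; edgeR adjusted p = 1.5e-11), higher in 4 of 4 libraries. That p-value does not set apart the part of the dividing gate in the difference. Cdc20 had 165 and 166 CPM in absorptive-marked cells of 2D and 152 and 198 CPM in those of 0D, against 87.4, 62.5, 79.1 and 85.6 CPM in stem-marked cells, and its log2 difference was 1.12. Aurka, the spindle pole kinase, differed by 1.00, Ccnb1 by 0.94, Cdca3 by 0.85, Birc5 by 0.82, Hmmr by 0.81 and Ube2c by 0.78, each higher in 4 of 4 libraries. No library of the stem-marked cells reached the level of any library of the absorptive-marked cells for Cdkn3, Cdc20, Aurka, Ccnb1 or Birc5.

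The 3 lower members were Ttk, Ndc80 and Top2a. Ttk had 15.2 and 11.01 CPM in absorptive-marked cells of 2D and 19.2 and 19.5 CPM in those of 0D, against 34.9, 25.3, 23.9 and 24.4 CPM in stem-marked cells, a log2 difference of -0.63 ± 0.14 (SE). Ndc80 differed by -0.48 and Top2a by -0.27, both lower in 4 of 4 libraries. Ndc80 was higher in secretory-marked than in stem-marked cells (0.41 ± 0.08, SE; edgeR adjusted p = 1.8e-04). Stem-marked cells also held the S phase genes: 28 of the 30 S phase genes, 16 of them used by the dividing gate, were lower in absorptive-marked cells, with a median of -1.31. In secretory-marked cells 23 of 30 and in unmarked cells 23 of 30 were lower. Of all genes, 36.2% were called lower in absorptive-marked, 32.7% in secretory-marked and 32% in unmarked than in stem-marked cells.

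**Figure D4:**
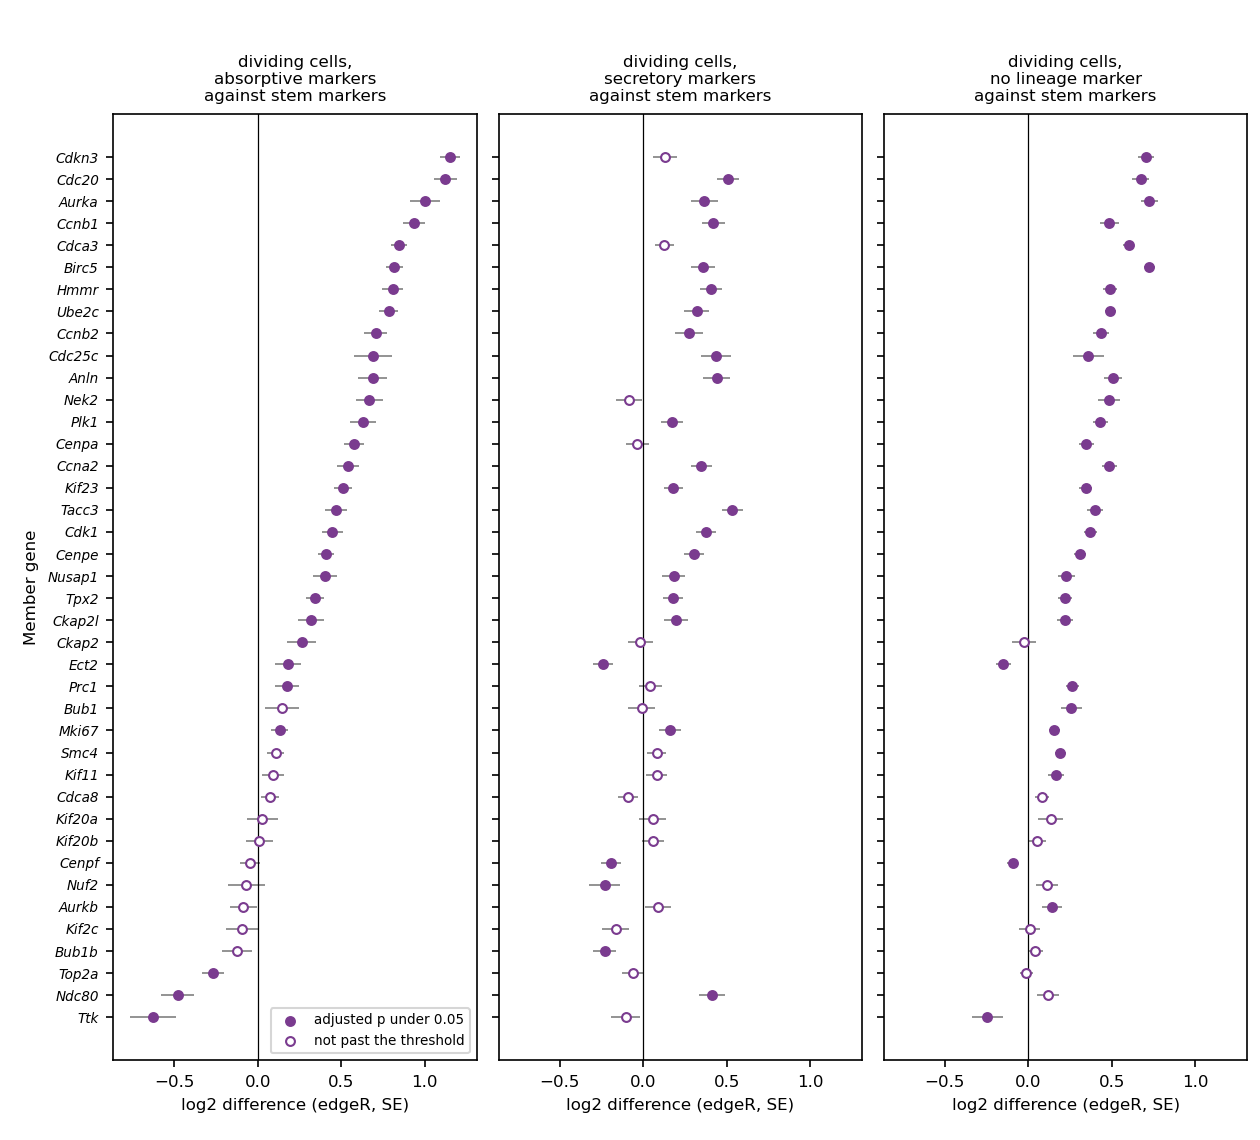
Log2 difference of each member between absorptive-, secretory- or unmarked dividing cells and stem-marked dividing cells (points with SE bars, paired by library); filled points passed the edgeR adjusted threshold. Cdkn3 at 1.15 and Ttk at -0.63 mark the ends in absorptive-marked cells. The part of the dividing cut in these differences was not tested.

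The subsets lay at different places on the cycle axis, and the part of this in the member differences was not tested. Of absorptive-marked dividing cells, 1.504% and 5% in 2D and 3.64% and 2.63% in 0D fell in bin 1, against 37.0%, 36.7%, 33.7% and 34.3% of stem-marked cells. In bin 3 stood 47.4% and 50% of absorptive-marked cells in 2D and 48.5% and 49.3% in 0D, against 20.8%, 21.8%, 20.3% and 20.7% of stem-marked cells. Inside bin 3 the median ratio of absorptive-marked to stem-marked cells over the 40 members was 0.80, with 12 of 40 members higher, and inside bin 4 it was 0.81, with 13 of 40 higher. In all 4 libraries 7 members were higher and 24 lower in bin 3, and 4 were higher and 21 lower in bin 4; Cdc20, Cdca3, Cdkn3 and Birc5 were higher in both bins. Secretory-marked cells had median ratios of 0.85 and 0.88 in these bins, with 0 and 6 members higher and 24 and 19 lower in all 4 libraries. Unmarked cells had median ratios of 1.26 and 1.065 in bins 1 and 2, with 34 and 30 of 40 members higher. In bins 3 and 4 their median ratios were 0.93 and 0.91. There 8 and 8 members were higher and 19 and 18 lower in all 4 libraries. Bins 1 and 2 hold as few as 2 and 7 absorptive-marked cells in a library, so their ratios are not read. These are descriptions, with no test.

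Among cells outside the dividing gate, members kept different proportions. Dividing cells held 44.9-fold more Top2a than non-dividing absorptive cells, 44.1-fold more Aurkb and 46.8-fold more Ndc80, but 2.71-fold more Cdkn3, 2.89-fold more Ccnb2 and 3.19-fold more Cdca3. Cdca3 thus made up 11.2% of member CPM in non-dividing absorptive cells, against 3.27% in dividing cells, Ccnb2 7.56% against 2.01%, and Cdkn3 4.95% against 1.21%. The same 3 genes were the 3 with the smallest fold against stem cells and cells with no marker. In non-dividing secretory cells the fold ran from 10.5 for Kif23 to 37.4 for Aurkb. The dividing markers in these gates and free RNA were not tested as sources of these transcripts.

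**Figure D5:**
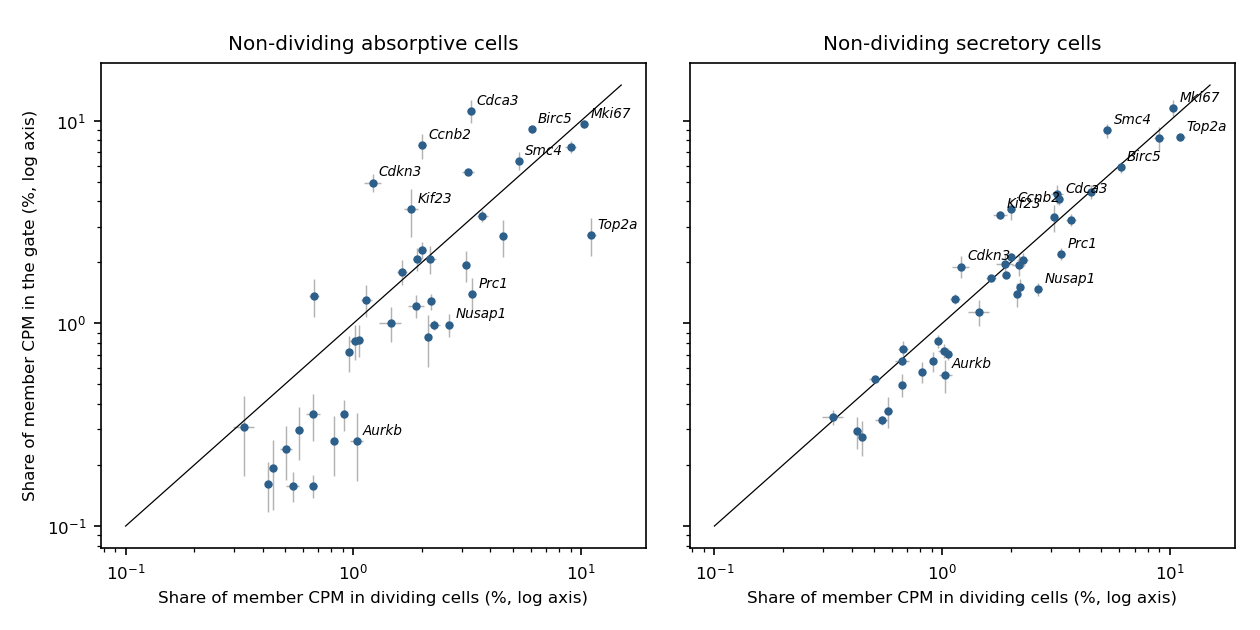
Share of summed member CPM taken by each member in non-dividing absorptive (left) or secretory (right) cells against its share in dividing cells (%, log axes; mean over 4 libraries, bars SD); the line marks equal shares. Cdca3, Ccnb2 and Cdkn3 lie above the line in absorptive cells (11.2%, 7.56% and 4.95%).

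Other genes of the pathway, from lists fixed with earlier results of these data known, showed no call in dividing cells between groups. Of the 30 S phase genes, 3 had a log2 change above 0, with a median of -0.16, and 8 had an unadjusted p under 0.05 (11.7% of all 13551 genes did); the smallest were Cdt1, a licensing factor, at -0.33 ± 0.07, Gins2, a helicase subunit, at -0.24 ± 0.07, and Uhrf1, a DNA methylation factor, at -0.31 ± 0.09 (SE; edgeR adjusted p = 0.343, 0.367 and 0.373). Of 38 other G2 and mitosis genes, 23 lay above 0, with a median of 0.02; Knstrn, Spc25 and Spag5, all spindle or kinetochore proteins, had the smallest p, at -0.27, -0.16 and -0.18. Of 30 regulators of mitotic entry and G2/M transcription, 12 lay above 0, with a median of -0.04, and Cdc25b, which activates Cdk1, had 0.22 ± 0.07 (SE; edgeR adjusted p = 0.391), Lin54, a DREAM subunit, 0.22 and Wee1, the kinase that restrains Cdk1, -0.25. An unadjusted p under 0.05 was found for 0 of the 38 and 2 of the 30. Markers of the dividing gate include 16 of the S phase genes, Uhrf1 among them, and also Knstrn and Spc25. Their levels inside the gate are tied to how its cells were selected.

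Across the 8126 dividing cells, each member was compared with the summed level of the other members within its own library. The mean Pearson correlation over the 4 libraries ran from 0.30 for Ttk to 0.75 for Ube2c, with Cenpf at 0.73 and Birc5 and Mki67 at 0.72. The cells of a library share depth and free RNA, and low genes have low correlations, so this is a description: Ttk had a UMI in 31.4% of cells and Ube2c in 83.1%.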

How the data were processed

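Single-cell 3' libraries of small-intestinal crypt cells were analysed from the count matrices deposited by the authors, which hold raw UMI counts per gene and cell. Per the submitters' processing notes, reads were aligned to mm10 with Cell Ranger 2.1.1, while the file headers name cellranger 7.0.0. The cell filter asked for 500 or more detected genes and a mitochondrial share no higher than 20%. The gate score of a cell was the mean log2(1 + UMIs per 10000) over the gate's markers. A cell passed when its score was above an Otsu cut over all cells (scikit-image 0.26.0). Cells above both the absorptive and a secretory cut were left out of the gates but kept among all epithelial cells. Stem gates hold only cells below the absorptive and secretory cuts. UMIs were summed per library and gate and tested with edgeR 4.0.16 (quasi-likelihood test, filterByExpr, TMM, Benjamini-Hochberg over all genes tested, threshold 0.05) in R 4.3.3; DESeq2 1.42.0 was an alternative. CPM divide a gene's UMIs by all UMIs of the same gate and library. Shares were compared over libraries with the two-sided exact permutation test, after thinning to 3000 UMIs where they count cells with a member UMI. Doublets were kept; Scrublet's own cut marked 521 and 0 cells in 2D and 624 and 367 in 0D, so cells with a score over 0.3 were left out as an alternative. On simulated counts over 13400 genes the dividing-cell test made 9 false calls. It recovered 75 of 99 genes changed by 1 log2 unit and 92 of 96 changed by 2. Changes as small as those of the members in dividing cells were not simulated.

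All 40 members could be named, the 10 highest in dividing cells in full, and from the other lists those past the threshold or else the 3 smallest p. The members and lists were chosen with earlier results of these data known. The comparison of unmarked with stem-marked dividing cells, the count of at least 15 UMIs, the thinned gates, the counts of non-overlapping libraries, the 50-base promoter window, the stretch of promoter shown and the genes labelled in the composition plot were chosen after seeing the data.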

Additional observations from a re-analysis of the deposited data

How the results depend on the processing

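With all cuts 20% higher, the median member log2 change was -0.43 in non-dividing stem, 0.40 in non-dividing absorptive and -0.012 in absorptive-marked dividing cells, and the difference in the share of secretory-marked dividing cells was -0.382 percentage points. Without thinning, the difference in the share of non-dividing absorptive cells with at least 1 member UMI was -5.75 points. In stem-marked dividing cells 1 member, Kif20b, passed with DESeq2 and 1 with no filter on low counts. Against stem-marked cells, 0 members were lower in secretory-marked cells with doublets left out, and in unmarked cells 1 was lower with no filter and 0 without the library block. Leaving out 1 library gave 0 to 40 members past the threshold in all cells, 0 to 4 in dividing, 0 to 1 in non-dividing stem, 0 to 6 in absorptive, 0 to 9 in secretory, 0 to 13 in stem-marked and 0 to 4 in unmarked dividing cells. The median log2 change then ran from -0.60 to -0.03 in all cells, from -0.09 to 0.08 in dividing, -0.387 to -0.216 in non-dividing stem, -0.056 to 0.298 in non-dividing absorptive, -0.34 to 0.02 in non-dividing secretory, -0.04 to 0.19 in stem-marked, -0.04 to 0.08 in unmarked, -0.18 to -0.04 in secretory-marked and -0.211 to -0.0769 in absorptive-marked dividing cells, and 2 to 4 members were lower in secretory-marked and 1 to 3 in unmarked than in stem-marked cells. The share differences ran from -0.616 to 0.62 points for secretory-marked dividing cells, -0.592 to 4.85 for member-rich dividing cells, -5.21 to 1.76 for member-rich secretory-marked dividing cells, and, for at least 1 member UMI, -8.33 to 9.03 in non-dividing absorptive and -8.82 to 3.01 in non-dividing secretory cells. With a replicate block, which the labels do not justify as a pairing (same-numbered deviations correlated at -0.029 in dividing cells), 0 members passed in any gate, the dividing median was -0.01, and 78 genes passed in dividing and 184 in non-dividing secretory cells, against 0 and 0. DESeq2 called 136 genes in dividing, 111 against 24 in non-dividing absorptive, 76 against 9 in stem-marked and 74 against 6 in unmarked dividing cells. In dividing cells 1467 genes were called when 2D-1 was left out and 1741 when 2D-2 was; these fits hold 1 library of 2D and assume that it varies like the 0D pair, so their calls have no replicate check in 2D. With all cuts 20% higher the non-dividing secretory median was 0.02. The causes were not tested.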
